A study of Homo sapiens with 4 samples.

Results

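Cholesterol synthesis is governed by the sterol regulatory element-binding proteins (SREBPs), and 28 genes of this system were followed here in RNA captured by the miRNA pull out assay with miR-28-5p. They were grouped by role: 7 regulators (SREBF2, SREBF1, SCAP, INSIG1, INSIG2, MBTPS1 and MBTPS2), 18 enzymes of the pathway from acetyl-CoA to cholesterol, and 3 genes of sterol transport (STARD4, NPC1 and NPC2). The files name 24596 genes in all. The 28 genes were covered by 60 RefSeq transcript records, and each gene passed the filter on low values. SREBF2 and NPC1 are also on the study's own list of enriched transcripts, which was drawn up from these libraries, so their direction is not independent evidence.

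DU-145 is an androgen-independent prostate cancer cell line. In both arms the cells received 60 nM of a miR-28-5p duplex with a transfection lipid, were irradiated at 365 nm 24 hours later, and 15 μg of total RNA was put on streptavidin beads. In the miR-28CT arm the duplex was untagged. In the miR-28BIO arm it was a mix of biotin-tagged duplexes with a thiouridine, a base that crosslinks to RNA under this light, at nucleotide 8 or 18. There were 2 libraries in each arm, described as biological replicates; a further miR-28CT sample that the design text counts was not analysed here. The control cells were thus given miR-28-5p too, and the arms differed in the tag and the thiouridine. No library of the RNA before the beads was analysed here, so capture by the beads and amount in the cells cannot be told apart, and in a bulk sample neither can the number of cells and the RNA per cell.

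Levels are given as FPKM, a read density corrected for the length of the transcript and the depth of the library, after summing over the records of a gene and dividing by a scaling factor for each library (scaled FPKM). About 13000000 to 17900000 reads stood behind the FPKM of a library, estimated from the deposited coverage. Epithelial keratins were present (KRT8 12.6 to 35.9, KRT18 17.1 to 98.4 and KRT19 20.2 to 92.2 scaled FPKM), E-cadherin (CDH1) was at 0.852 to 1.63, and the leukocyte, endothelial and muscle markers PTPRC, PECAM1 and DES and the luminal prostate markers KLK3, KLK2 and TMPRSS2 were listed at 0 in all 4 libraries. Of the 5 epithelial genes looked at, KRT8 and EPCAM were lower in both miR-28BIO libraries than in both miR-28CT libraries. So were 12.7% of all genes tested. In KRT18, KRT19 and CDH1 the arms overlapped. The part of this in the results below was not tested.

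SREBF2 and SREBF1 encode transcription factors that are made as precursors in the membrane of the endoplasmic reticulum. When sterols are low, the escort protein SCAP carries the precursor to the Golgi, where the proteases encoded by MBTPS1 (site-1 protease) and MBTPS2 (site-2 protease) release its active part, and when sterols are high, INSIG1 and INSIG2 hold SCAP back. The factor encoded by SREBF2 acts mainly on genes of cholesterol synthesis and uptake, and that of SREBF1 mainly on fatty acid synthesis. A miRNA binds RNA largely through its seed, nucleotides 2 to 8, so the transcripts of the 28 genes were searched for the complement of the miR-28-5p seed.

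The 7-base match, AGCTCCT, was searched on the sense strand of the canonical GENCODE 44 transcript (hg38, the build of the files). It was found in 4 of the 28 genes (14.3%), against 33.1% of the 10398 tested genes with a coding transcript. In SREBF2 and SREBF1 it lay in the coding sequence and in MVK and MBTPS2 in the 3′UTR, and over all these genes 19.7% held it in the coding sequence and 15.5% in the 3′UTR. The 6 windows of 30 bases are printed because they are the places where a seed pairing could be drawn in this gene system, with the match in capitals.
SREBF2, coding: aacagctgtgtAGCTCCTttcctggcagtg
SREBF1, coding, first site: ctgccacattgAGCTCCTctcttgaagcct
SREBF1, coding, second site: acggacacaccAGCTCCTcgaccgcagtct
MVK, 3′UTR: agcgagcgcccAGCTCCTgacactgctgga
MBTPS2, 3′UTR, first site: caacaaccctgAGCTCCTcccatatccaga
MBTPS2, 3′UTR, second site: atctggggcctAGCTCCTgggttcctgtct

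The SREBF2 window is chr22:41866885-41866914 on the plus strand, in exon 2 of 19 of ENST00000361204.9, and its match starts in codon 52. The SREBF1 windows are chr17:17820357-17820386 in exon 2 and chr17:17813400-17813429 in exon 18 of 19 of ENST00000261646.11, on the minus strand, with matches that start in codons 80 and 1055. The MVK window is chr12:109596660-109596689 on the plus strand, in the last of 11 exons of ENST00000228510.8. The MBTPS2 windows are chrX:21882778-21882807 and chrX:21883576-21883605 on the plus strand, in the last of 11 exons of ENST00000379484.10. Outside the match the SREBF2 window shared 5 and 4 of 23 bases with the first and second SREBF1 windows, so the letters around the match were mostly different in the paralogs. A match is a description of letters and not evidence of binding.

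None of the 28 genes passed the test between the arms. With limma and Benjamini-Hochberg adjustment over 11311 genes, 0 of 28 were called higher and 0 lower in miR-28BIO (background, 0% and 0.0265% of all genes), and the adjusted p was 1.00 for each of them. At an unadjusted limma p under 0.05, 1 gene was higher, ACAT2 (background, 2.22%), and 0 were lower (background, 0.805%). With the replicate number as a block in limma, 6 were higher and 6 lower (background, 10.2% and 15.5%). Both miR-28BIO values lay above both miR-28CT values in 5 genes, ACAT2, IDI1, HSD17B7, STARD4 and NPC1 (17.9%, against 12.3% of all genes), and below them in FDFT1 (3.57%, against 12.7%), and the arms overlapped in the other 22. The median log2 fold change of miR-28BIO over miR-28CT was -0.24 (quartiles -0.53 and 0.34), beside -0.08 (quartiles -0.48 and 0.30) over all genes, with 9 genes above 0 and 19 below. Without SREBF2 and NPC1 the median was also -0.24. The median was 0.22 without miR-28CT replicate 2 and 0.24 without miR-28BIO replicate 1, so its sign changed when either was left out. These fits leave the replicates unequal between the arms, and in 18 of the 28 genes replicate 2 was the higher in both arms. An exact permutation test of 1 gene over 2 and 2 libraries cannot go below a two-sided p of 0.333.

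**Figure D1:**
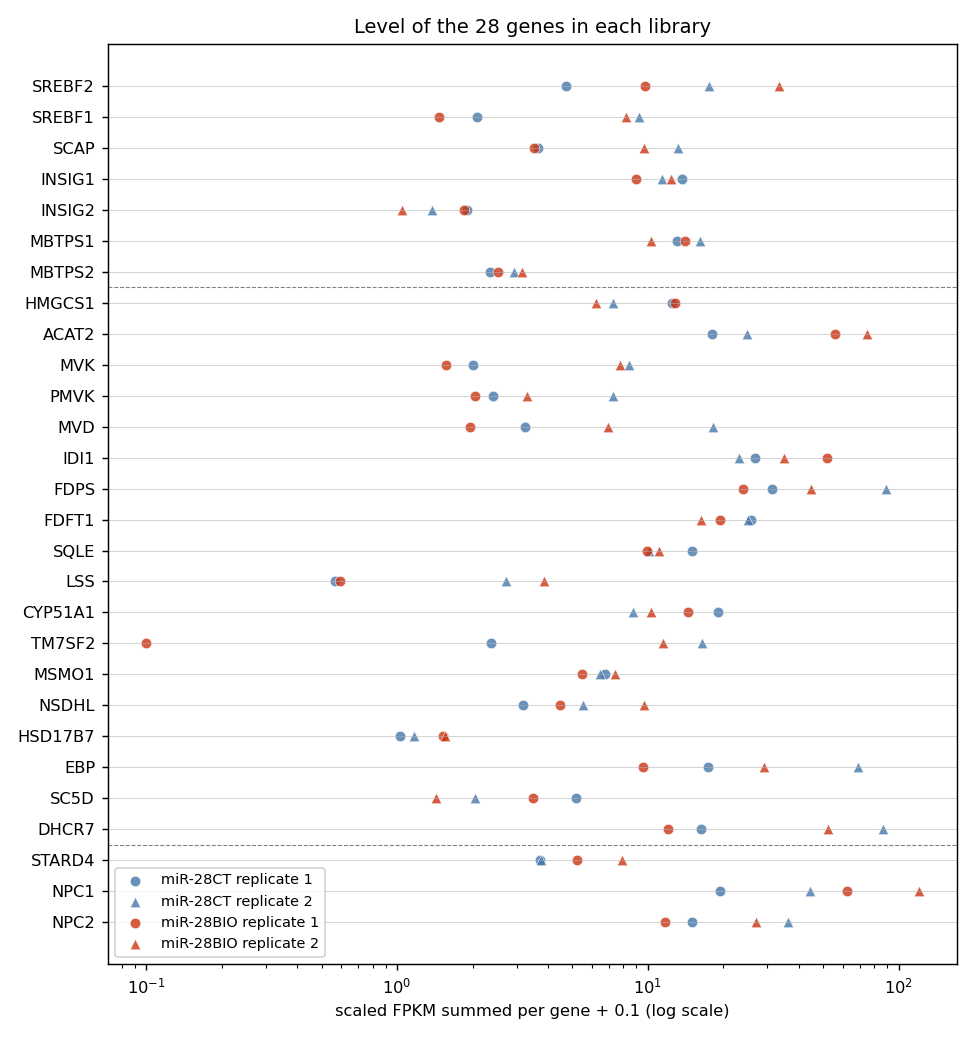
Scaled FPKM summed per gene plus 0.1 (log axis) of the 28 genes in each of the 4 libraries, with regulators, enzymes and transport genes separated by dashed lines. ACAT2 and NPC1 have both red miR-28BIO points to the right of both blue miR-28CT points, whereas in SREBF2, MVK, MVD and DHCR7 the replicates of an arm lie farther apart than the arms.

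**Figure D2:**
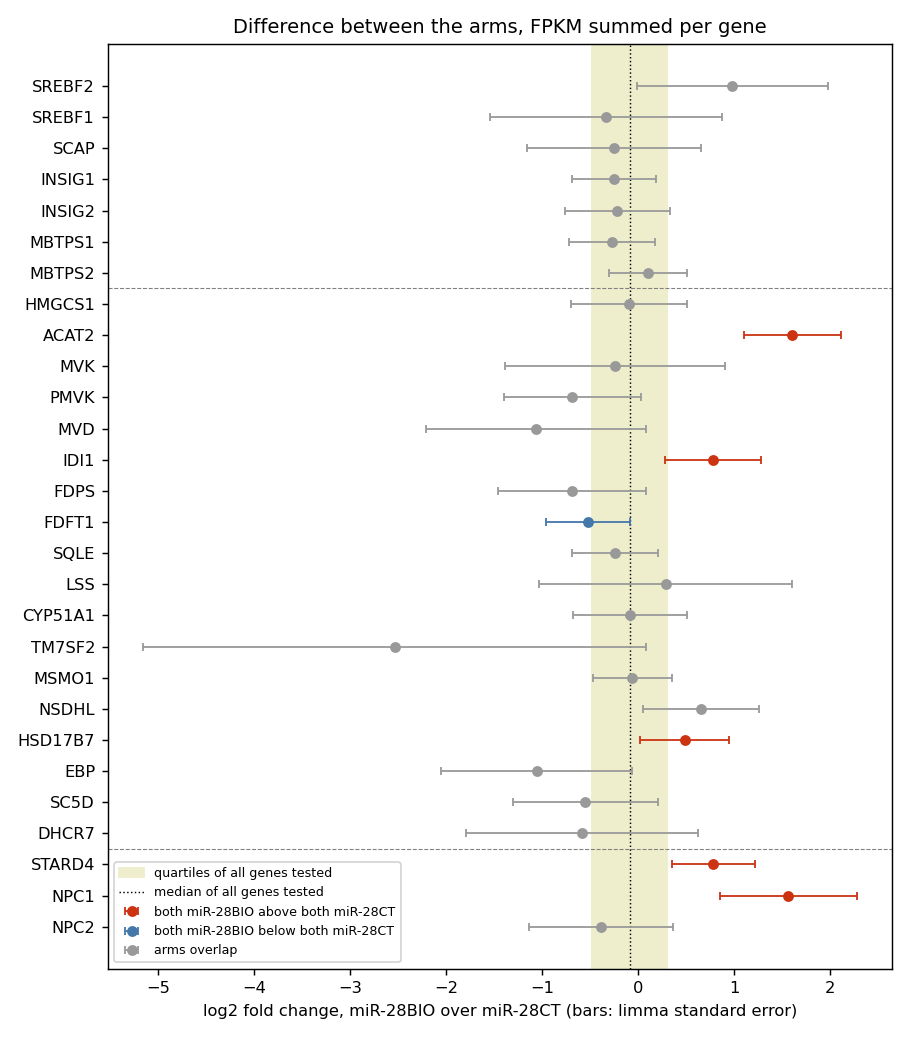
Log2 fold change of miR-28BIO over miR-28CT for each gene, with the limma standard error as bars, beside the median and quartiles of all genes tested. Of the 28 genes, 5 have both miR-28BIO values above both miR-28CT values, 1 has both below and 22 overlap.

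Among the regulators, SREBF2 had the highest log2 fold change, and those of the other 6 lay between -0.34 and 0.10. SREBF2 (NM_004599, chr22:41833079-41907308) had a scaled FPKM of 4.63 (replicate 1) and 17.4 (replicate 2) in miR-28CT, and of 9.64 and 33.1 in miR-28BIO. Replicate 2 was high in both arms, and miR-28BIO replicate 1 lay below miR-28CT replicate 2, so the arms overlapped. The means were 11.0 ± 9.07 and 21.4 ± 16.6 (SD, n = 2 each), the log2 fold change was 0.98 ± 0.99 (SE; limma, unadjusted p = 0.378, adjusted p = 1.00), and 93.3% of all genes had a lower one. It was 0.04 without miR-28CT replicate 1 and 1.93 without miR-28CT replicate 2, fits that leave the replicates unequal between the arms. Between same-numbered libraries the log2 difference was 1.04 in replicate 1 and 0.92 in replicate 2. The labels do not say whether such libraries belong together. About 464, 1014, 929 and 2780 reads stood behind the 4 scaled FPKM values. The second SREBF2 record, the non-coding NR_103834, was listed at 0 in all 4 libraries.

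SREBF1 (NM_004176, chr17:17811349-17837011), the paralog, had a lower level than SREBF2 in every library. Its scaled FPKM was 1.99 and 9.11 in miR-28CT, beside 1.37 and 8.11 in miR-28BIO. Each replicate 2 was far above its replicate 1, the arms overlapped, and the log2 fold change was -0.34 ± 1.21 (SE). Its other record, NM_001005291, was listed at 0 in all 4 libraries. Since both factors were high in replicate 2, their ratio was taken within each library. SREBF2 over SREBF1 (each scaled FPKM plus 0.1) was 2.27 and 1.91 in miR-28CT and 6.65 and 4.05 in miR-28BIO, so the 2 arms did not overlap in the ratio. On the log2 scale the means were 1.06 ± 0.18 and 2.37 ± 0.51 (SD, n = 2 each), and the difference of 1.32 had an exact two-sided permutation p of 0.333, the smallest this design allows. Without each library in turn the difference ranged from 0.96 to 1.68. SREBF2 is on the study's list of enriched transcripts, drawn up from these libraries, so the direction of the ratio is not independent evidence. How often the ratio of other gene pairs separates the arms was not calculated. GENCODE 44 has exons of SREBF2-AS1 over 731 bases of SREBF2 exons and exons of RAI1 over 556 bases of SREBF1 exons, on the opposite strand. RAI1 was at 0.457 to 0.923 scaled FPKM. The library kit keeps the strand, but whether the FPKM estimate used it is not given in the sources used here.

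**Figure D3:**
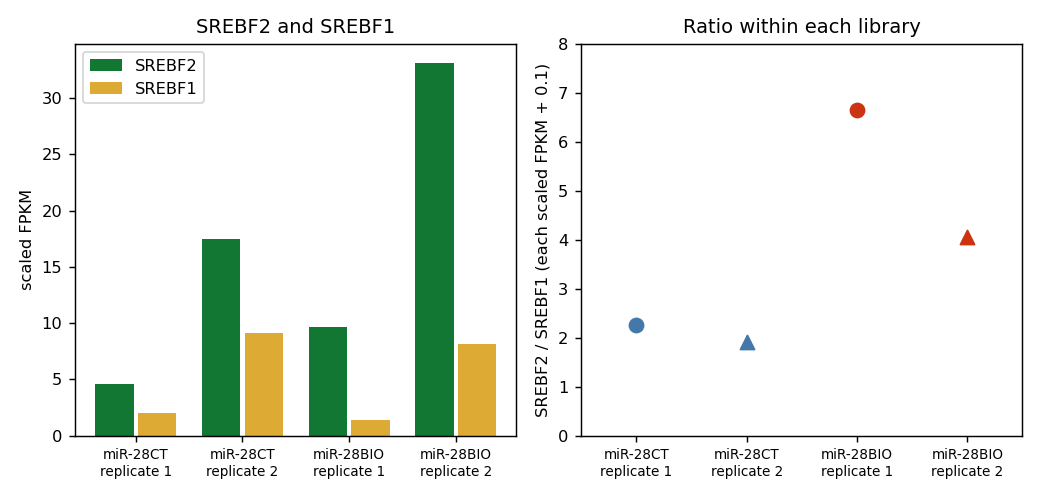
Left, scaled FPKM of SREBF2 and SREBF1 in each library; right, the SREBF2 to SREBF1 ratio within each library. The levels of both genes are higher in replicate 2 of each arm, while the ratio is 1.91 and 2.27 in miR-28CT and 4.05 and 6.65 in miR-28BIO.

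The machinery that moves and cuts the precursors showed overlapping arms throughout. SCAP was at 3.55 and 13.1 scaled FPKM in miR-28CT and at 3.42 and 9.57 in miR-28BIO (log2 fold change -0.25 ± 0.91, SE), again with replicate 2 high in both arms. INSIG1, itself a target gene of the SREBPs, was at 13.6 and 11.3 against 8.87 and 12.3 (-0.25 ± 0.44), and INSIG2, which is less tied to SREBP activity, was at 1.81 and 1.28 against 1.75 and 0.950 (-0.22 ± 0.55). MBTPS1 was at 13.0 and 16.0 against 13.9 and 10.2 (-0.27 ± 0.45). MBTPS2, which holds both of its seed matches in the 3′UTR, was at 2.25 and 2.83 against 2.43 and 3.05 (0.10 ± 0.41). The difference between arms was within 1 standard error for each of these 5 genes. In level per length, SREBF2 in miR-28BIO replicate 2 was the highest regulator value of any library, and in the replicate 1 libraries INSIG1 (miR-28CT) or MBTPS1 (miR-28BIO) was the highest.

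The first steps of the pathway join acetyl-CoA units into mevalonate, and the gene of the first of them, ACAT2, had the highest log2 fold change of the 28 genes. ACAT2 (NM_005891, chr6:159761957-159779055), the cytosolic thiolase that makes acetoacetyl-CoA, was at 18.0 and 24.8 scaled FPKM in miR-28CT and at 55.7 and 75.0 in miR-28BIO. The lower miR-28BIO value was more than 2-fold above the higher miR-28CT value, as in 2.17% of all genes, and ACAT2 was the only one of the 28 of which this held, while 0 of them lay that far below (0.946% of all genes). The means were 21.4 ± 4.81 and 65.3 ± 13.6 (SD, n = 2 each), a ratio of 3.06, and the log2 fold change was 1.61 ± 0.51 (SE; limma, unadjusted p = 0.0328, adjusted p = 1.00), above that of 96.8% of all genes. Between about 425 and 1857 reads stood behind each value. ACAT2 holds neither AGCTCCT nor its part AGCTCC, which lacks the base that pairs with nucleotide 2. Its exons share 454 bases with exons of TCP1 and 133 with exons of SOD2, both on the opposite strand. TCP1, a chaperonin subunit, was at 35.3 and 33.9 scaled FPKM in miR-28CT and lower, at 21.7 and 23.2, in miR-28BIO. SOD2, the mitochondrial superoxide dismutase, was at 29.4 and 44.7 against 21.6 and 37.8. Neither neighbour was higher in miR-28BIO.

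HMGCS1, the synthase that adds the next acetyl unit, was at 12.4 and 7.19 scaled FPKM in miR-28CT and at 12.7 and 6.11 in miR-28BIO, nearly the same in the arms and lower in replicate 2 of each (log2 fold change -0.10 ± 0.60, SE). The kinases and the decarboxylase that turn mevalonate into an isoprene unit went the other way between replicates. MVK was at 1.90 and 8.35 against 1.47 and 7.65 (-0.24 ± 1.15), PMVK at 2.31 and 7.19 against 1.95 and 3.20 (-0.69 ± 0.71), and MVD at 3.14 and 18.2 against 1.85 and 6.86 (-1.06 ± 1.15). In each of these 3 genes replicate 2 was the higher in both arms, and the arms overlapped. MVK, with a seed match in its 3′UTR, was thus not higher in miR-28BIO.

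IDI1 (NM_004508, chr10:1040024-1049121), the isomerase of the isoprene unit, was at 26.7 and 23.0 scaled FPKM in miR-28CT and at 51.8 and 35.0 in miR-28BIO. Both miR-28BIO values were above both others, but the lower of them by less than 2-fold. The means were 24.8 ± 2.62 and 43.4 ± 11.9 (SD, n = 2 each) and the log2 fold change was 0.78 ± 0.50 (SE; limma, unadjusted p = 0.190, adjusted p = 1.00). The antisense gene IDI2-AS1, which shares 643 exonic bases with IDI1, was listed at 0 in all 4 libraries, and 3 named pseudogenes of IDI1 could share its reads. FDPS, which joins isoprene units into farnesyl diphosphate and has 8 named pseudogenes, was at 31.2 and 89.2 against 23.9 and 44.7 (-0.69 ± 0.77), with overlapping arms.

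Squalene is then formed, oxidised and closed into lanosterol. FDFT1, squalene synthase, was the only one of the 28 genes with both miR-28BIO values below both miR-28CT values. It was at 25.7 and 25.0 scaled FPKM in miR-28CT and at 19.3 and 16.2 in miR-28BIO, with means of 25.3 ± 0.542 and 17.7 ± 2.19 (SD, n = 2 each) and a log2 fold change of -0.52 ± 0.44 (SE; limma, unadjusted p = 0.298, adjusted p = 1.00). The replicates of each arm lay within a few units of each other, unlike those of most genes of the pathway. SQLE, squalene epoxidase, was at 14.9 and 10.0 against 9.80 and 11.0 (-0.24 ± 0.45). LSS, lanosterol synthase, was among the lowest of the enzymes, at 0.463 and 2.62 against 0.491 and 3.77 (0.29 ± 1.32), with about 23.8 to 162 reads behind a value.

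The 8 enzymes that convert lanosterol to cholesterol gave 6 log2 fold changes below 0 and 2 above. CYP51A1, the lanosterol demethylase, was at 19.0 and 8.66 scaled FPKM in miR-28CT and at 14.4 and 10.2 in miR-28BIO (-0.08 ± 0.59). TM7SF2, a sterol reductase, was at 2.27 and 16.4 in miR-28CT, listed at 0 in miR-28BIO replicate 1 and at 11.5 in miR-28BIO replicate 2, and its log2 fold change of -2.54 ± 2.62 rested on the value listed at 0: it was -4.17 with a pseudocount of 0.01 and -1.09 with one of 1. MSMO1, the methylsterol oxidase, varied little, at 6.68 and 6.35 against 5.37 and 7.27 (-0.06 ± 0.41). These 3 genes did not separate the arms.

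NSDHL and HSD17B7 act together with MSMO1 in removing methyl groups from the sterol ring, and both had fold changes above 0. NSDHL was at 3.08 and 5.39 scaled FPKM in miR-28CT and at 4.38 and 9.59 in miR-28BIO (0.66 ± 0.61), so that miR-28BIO replicate 1 lay below miR-28CT replicate 2. HSD17B7 was at 0.927 and 1.07 against 1.42 and 1.46 (0.49 ± 0.47), with the arms apart. Only about 18.1 to 39.4 reads stood behind each HSD17B7 value and the gene has 2 named pseudogenes, so this small difference had the thinnest base of the 5 in which miR-28BIO was above. EBP, the sterol isomerase, was at 17.3 and 68.9 against 9.46 and 28.9 (-1.06 ± 0.99), SC5D, the desaturase, at 5.07 and 1.95 against 3.37 and 1.33 (-0.55 ± 0.75), and DHCR7, the last reductase, at 16.2 and 86.4 against 11.9 and 52.2 (-0.58 ± 1.21). All 3 overlapped between the arms, with EBP and DHCR7 high and SC5D low in replicate 2.

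The transport genes move cholesterol between membranes, NPC1 and NPC2 out of the lysosome and STARD4 through the cytosol. NPC1 (NM_000271, chr18:23531499-23586617) was at 19.3 and 44.1 scaled FPKM in miR-28CT and at 62.5 and 120.4 in miR-28BIO. The arms did not overlap, though replicate 2 was again the higher in each arm. The means were 31.7 ± 17.5 and 91.4 ± 41.0 (SD, n = 2 each), a ratio of 2.88, and the log2 fold change was 1.57 ± 0.71 (SE; limma, unadjusted p = 0.0918, adjusted p = 1.00), above that of 96.6% of all genes. NPC1 had the most reads of the 28 genes, about 9249 in miR-28BIO replicate 2. RMC1, which shares 619 exonic bases with it on the opposite strand, was listed at 0 in all 4 libraries. NPC1 holds no match to nucleotides 2 to 8 in its coding sequence or UTRs. Its coding sequence holds AGCTCC, the match without the base that pairs with nucleotide 2, at 2 places. Of all genes, 45.2% held AGCTCC in the coding sequence at least at 1 place.

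NPC2, the soluble partner that hands cholesterol to NPC1, did not follow it. It was at 14.8 and 36.2 scaled FPKM in miR-28CT and at 11.7 and 26.9 in miR-28BIO, with overlapping arms (-0.39 ± 0.75). STARD4 was at 3.61 and 3.65 against 5.14 and 7.79. The 2 miR-28CT values were close together and both miR-28BIO values were above them, with means of 3.63 ± 0.0311 and 6.46 ± 1.88 (SD, n = 2 each) and a log2 fold change of 0.79 ± 0.43 (SE; limma, unadjusted p = 0.140, adjusted p = 1.00). STARD4 holds neither AGCTCCT nor its part AGCTCC.

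Which RefSeq record a gene's reads were assigned to differed between libraries for several genes. Of the 60 records, 44 could be tested, 16 were listed at 0 in all 4 libraries and 19 at 0 in some of them, and 0 of the 44 passed limma's test over 15587 records (background, 0% in each direction). At an unadjusted limma p under 0.05, 1 record was higher, that of ACAT2 (background, 2.09%), and 1 lower, NM_004462 of FDFT1 (background, 1.49%). In 6 of the 14 genes with several records, CYP51A1, FDPS, HMGCS1, MVK, SC5D and TM7SF2, the record with the most FPKM was not the same in all libraries. MVK lay almost evenly on NM_000431 and NM_001114185 in both replicate 1 libraries (0.947 and 0.954 scaled FPKM in miR-28CT), wholly on NM_000431 in miR-28CT replicate 2 (8.35) and wholly on NM_001114185 in miR-28BIO replicate 2 (7.65). These 2 records differ little in sequence length (2073 and 2064 bases), and the sum of both was nearly the same in the 2 replicate 2 libraries.

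HMGCS1 likewise lay on NM_002130 in miR-28CT replicate 2 (7.19) and on NM_001098272 in miR-28BIO replicate 2 (6.11), with 0 for the other record in each. In FDPS the 2 replicate 1 libraries shared a top record, NM_001242824 (23.0 and 15.2 scaled FPKM), that was listed at 0 in both replicate 2 libraries, where NM_001135822 was on top (41.7 and 16.2). The FDFT1 record NM_004462 was at 5.05 and 5.01 in miR-28CT and listed at 0 in both miR-28BIO libraries, with a limma adjusted p of 0.845, while the top record of the gene, NM_001287748, was the same in all 4. With only the record of the highest mean kept for each gene, the log2 fold change moved from -0.10 to -2.59 in HMGCS1 and from -0.24 to -3.37 in MVK, and from below 0 to 2.1 in CYP51A1 and 2.3 in SC5D. A difference in a single record of these genes was therefore not read as one of the gene.

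**Figure D4:**
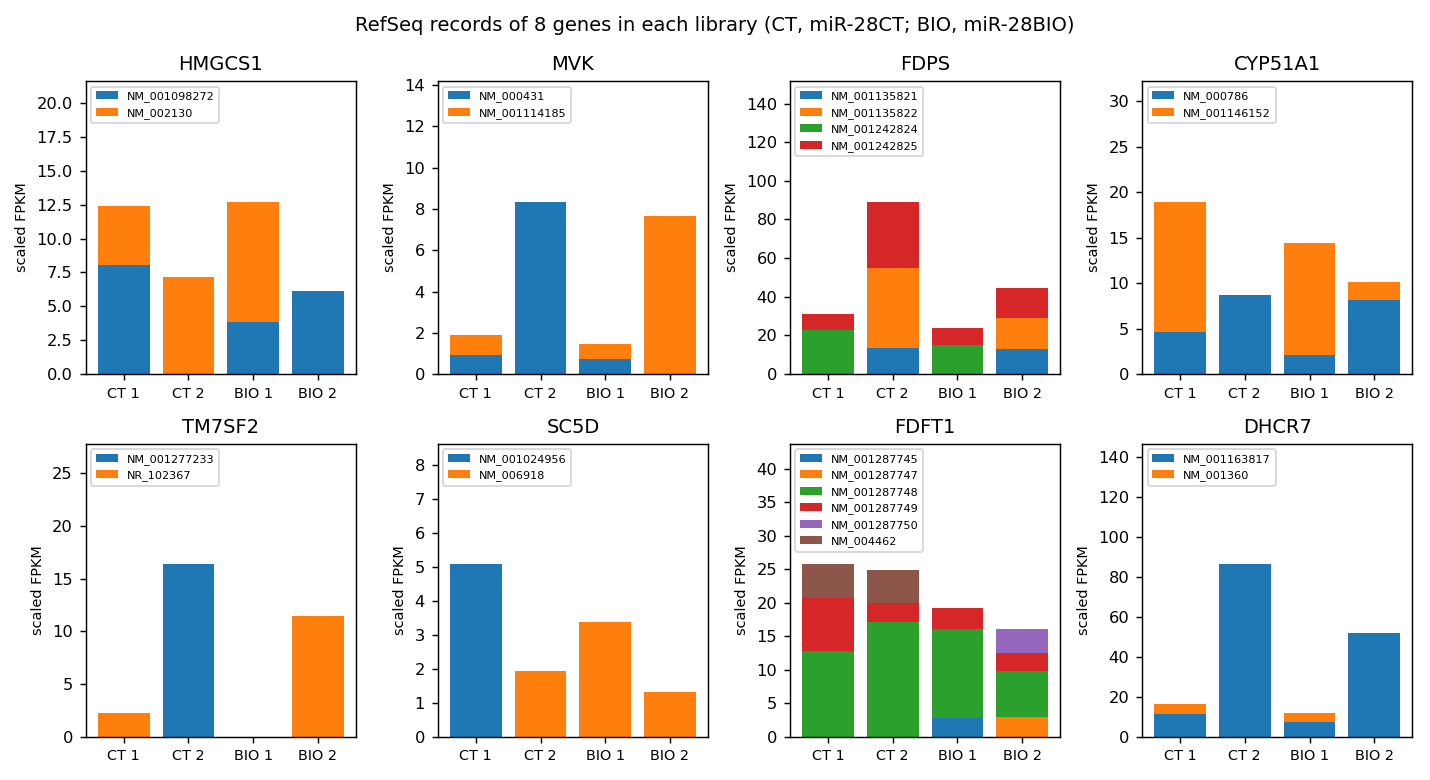
Scaled FPKM of each RefSeq record, stacked per library, for 8 genes with several records. In HMGCS1 and MVK the replicate 2 libraries of the arms lie on different records at much the same sum, and in FDPS the records follow the replicate number.

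The difference between replicates was larger than that between arms. The log2 difference of replicate 2 over replicate 1 was averaged over both arms, and its median absolute value was 1.01 over the 28 genes. Between the arms the median absolute log2 difference was 0.50. The replicate value was the larger also within the regulators (0.645 against 0.25), the enzymes (1.05 against 0.566) and the transport genes (1.07 against 0.785). These medians were not calculated over all genes. In 18 of the 28 genes replicate 2 was above replicate 1 in both arms, against 42.7% of all genes, and in 6 it was below in both, against 41.9%. The 18 comprised 4 regulators, 11 enzymes and all 3 transport genes. SREBF2, SREBF1 and SCAP were among them, together with MVK, MVD, EBP and DHCR7.

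**Figure D5:**
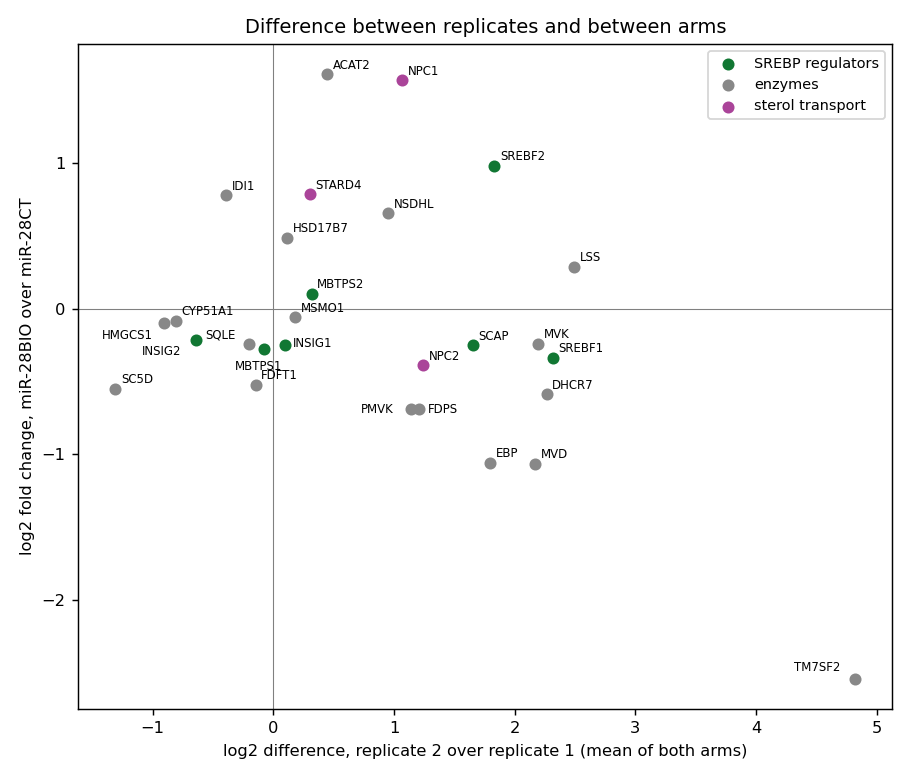
Log2 difference of replicate 2 over replicate 1, averaged over both arms (horizontal), against the log2 fold change of miR-28BIO over miR-28CT (vertical), 1 point per gene. ACAT2 combines a large difference between arms with a small one between replicates, whereas SREBF1, MVK, DHCR7 and LSS differ by more than 2 between replicates and by less than 1 between arms.

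Neighbouring lipid genes were counted in the same way, and 0 of them passed limma's test, with 0 also at an unadjusted p under 0.05. Of 14 genes of fatty acid synthesis, the branch served mainly by SREBF1, 13 were tested, with a median log2 fold change of -0.19, 2 above 0 and 11 below. SCD, the stearoyl-CoA desaturase, had the largest (0.46) and the only one with miR-28BIO above (52.8 and 56.3 against 64.4 and 87.6 scaled FPKM), followed by LPIN1 at 0.15, and the smallest were MID1IP1 at -1.03 and FADS2 at -0.86. The 10 genes of sterol-regulated protein degradation had a median of 0.14, with 6 above 0 and 4 below. SYVN1 had the largest value there, but it was listed at 0 in 3 libraries and at 8.16 in miR-28BIO replicate 2 alone; ERLIN1 followed at 0.48, and RNF139 (-0.58) and PGRMC1 (-0.42) were the smallest.

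Of 18 genes of sterol uptake, storage and efflux, 15 were tested, with a median of -0.02, 5 above 0 and 10 below. ABCA1, the cholesterol efflux pump, was at 2.88 and 2.86 scaled FPKM in miR-28CT and at 4.50 and 3.76 in miR-28BIO (log2 fold change 0.51), followed by VLDLR at 0.34. NR1H3, a sterol-sensing nuclear receptor, was at 0.849 and 1.65 against 0.730 and a value listed at 0 (-2.16), and NCEH1 had -0.47. The arms did not overlap in SCD and GPAM of the first list, RNF145 and ERLIN1 of the second, and ABCA1, NCEH1, LIPA and NR1H3 of the third, that is, in 1 gene above and 1 below, 2 above and 0 below, and 1 above and 3 below, beside 12.3% above and 12.7% below over all genes.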

How the data were processed

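Alignment to hg38 was done by the authors with TopHat2 2.0.9, and abundance was estimated with Cufflinks 2.1.1, per the labels' processing notes and the study's methods. They deposited the FPKM of 53209 RefSeq records for each library. The deposited coverage, a signal of mean read depth per record, served only to estimate reads (coverage times length over the 50 bp read). Depth is therefore approximate and no counting interval was calculated. The study ran Cuffdiff on the reads, which FPKM do not allow.

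Of these, 52530 had the status OK in each library and were used. Scaling factors (0.85 to 1.088) were medians of ratios over the 11650 records above 0 in all. Symbols came from the RefSeq table of GRCh38 (97.2% of records). FPKM were summed per gene, and the test ran on log2(scaled FPKM + 0.1) of genes averaging 0.5 or more, by limma 3.58.1 in R 4.3.3 (lmFit, eBayes with a trend, no block, Benjamini-Hochberg over all genes, threshold 0.05). On this scale the change of low genes is understated. P-values measure the spread between these libraries. All 28 genes are named, and from each other list the 2 largest and 2 smallest fold changes, since none passed. Genes, lists and rules were chosen with earlier results of these data known. Sequences are from GENCODE 44. Python 3.11.15 was used.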

Additional observations from a re-analysis of the deposited data

How the results depend on the processing

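No gene or record of the 28 was called under any alternative run (pseudocounts, filters, scalings, limma without a trend, the dominant transcript, the replicate block, each library left out). Of 252 gene refits that kept all libraries, 6 had the opposite direction: without scaling, HMGCS1 (0.07), CYP51A1 (0.09) and MSMO1 (0.11), and with the dominant transcript only, CYP51A1 (2.1), MSMO1 (0.05) and SC5D (2.30). The dominant transcript also moved HMGCS1 to -2.59, MVK to -3.37 and TM7SF2 to -3.68, and a pseudocount of 0.01 or 1 moved TM7SF2 to -4.17 or -1.09. Without scaling the median of all genes moved from -0.08 to 0.08. Genes with both miR-28BIO values above were 5 (12.3% of all genes), 7 without scaling (15.5%), and 1 when the arms had to be 2-fold apart (2.17%). Those below were 1 (12.7% of all genes), 1 without scaling (8.45%), 0 at 2-fold (0.946%) and 2 with the dominant transcript (13.1%). With 1 library fewer, arms separate more often by construction. Without miR-28CT replicate 1, 6 genes were above (32.1% of all genes) and 12 below (38.8%). Without miR-28CT replicate 2 these were 9 (26.7%) and 6 (31.3%). Without miR-28BIO replicate 1 they were 10 (24.9%) and 5 (28.6%), and without miR-28BIO replicate 2, 6 (30%) and 14 (35.2%). AGCTCC, the match without the base that pairs with nucleotide 2, was in 11 of the 28 genes, against 65.1% of all genes. The match to nucleotides 2 to 8 was in 4 of the 28. The match to nucleotides 2 to 7 was not searched. The causes of these shifts were not tested otherwise.

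Leaving out each library, the median log2 fold change ranged from -0.30 to 0.24, and SREBF2 from 0.04 to 1.93 by gene and by record. In 28 of these 112 refits, in 17 genes, the direction was opposite. A refit without 1 library leaves the replicates unequal between the arms, so the difference between replicates enters it. The ranges were -1.58 to 0.91 for SREBF1, -1.17 to 0.67 for SCAP, -0.62 to 0.19 for INSIG2, -0.06 to 0.26 for MBTPS2, -0.62 to 0.43 for HMGCS1, -1.39 to 0.92 for MVK, -1.48 to 0.11 for PMVK, -2.31 to 0.19 for MVD, -1.45 to 0.07 for FDPS, -0.52 to 0.04 for SQLE, -1.07 to 1.64 for LSS, -0.64 to 0.48 for CYP51A1, -5.96 to 0.89 for TM7SF2, -0.27 to 0.16 for MSMO1, -1.22 to 0.12 for SC5D, -1.79 to 0.62 for DHCR7 and -1.03 to 0.25 for NPC2. The other 11 kept 1 direction; beside SREBF2 they were EBP (-2.05 to -0.06), NSDHL (0.10 to 1.21), INSIG1 (-0.48 to -0.02), MBTPS1 (-0.50 to -0.05), ACAT2 (1.38 to 1.84), NPC1 (0.97 to 2.16), IDI1 (0.50 to 1.06), STARD4 (0.49 to 1.08), HSD17B7 (0.39 to 0.58) and FDFT1 (-0.65 to -0.39).

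The labels do not say what a replicate number marks. Deviations of same-numbered libraries from their arm means correlated across 11311 genes (Pearson's r = 0.623, Spearman's rho = 0.83; genes are not independent replicates). With the replicate block, 42 genes of all were called higher and 22 lower by limma (0.371% and 0.195%), against 0 and 3 without it, and 0 of the 28. At an unadjusted p under 0.05 it gave 6 of the 28 higher (SREBF2, ACAT2, IDI1, NSDHL, STARD4 and NPC1; 10.2% of all genes) and 6 lower (MVD, FDPS, FDFT1, EBP, SC5D and DHCR7; 15.5%). The smallest adjusted p of this limma fit by gene were 0.0637 for ACAT2, 0.0687 for NPC1, 0.0817 for SREBF2 and 0.0885 for EBP, the last of them lower. By record the adjusted p of SREBF2 was 0.352.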
